A study of Mus musculus with 2 samples.

Results

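The interferon response genes were followed as 1 module of 33 listed genes across 2 single-nucleus RNAseq libraries of the injured mouse tibia. They are transcription factors, RNA and DNA sensors, antiviral effectors, the ISG15 conjugation system, other interferon-induced genes and chemokines. They were chosen by gene symbol, and 31 of the 33 matched a symbol among the 32285 genes counted in both libraries. Mx1 and Mx2 matched none and are not analysed here. One library was made 1 day after tibial fracture, from hematoma collected with the scraped periosteum. The other was made at day 5 post-MTI, from hematoma or callus with the periosteum. MTI, musculoskeletal traumatic injury, adds compression of the muscles around the tibia to the fracture. Both came from C57BL6 mice without a named transgene or treatment, operated at 10 to 14 weeks of age. Each library is 1 pool of nuclei from 3 or 4 mice, sorted on a nuclear dye, so no value below has a biological replicate. The effects of day and of injury cannot be told apart, because both change from one library to the other, and values of the libraries are only set side by side.

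Interferons are secreted proteins, and cells release those of type I when their sensors meet foreign or misplaced nucleic acid. Type I interferons bind a receptor of IFNAR1 and IFNAR2, whose kinases activate STAT proteins. STAT2 with IRF9 then binds the interferon-stimulated response element (ISRE) in gene promoters, while type II interferon acts through the gamma-activated site (GAS). The induced genes block viral RNA translation and replication, and some of the same factors, such as IRF8, also direct the development of myeloid cells without any interferon.

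The promoters show which members carry these elements. The ISRE was searched as GAAANNGAAA and the GAS as TTCNNNGAA, on both strands and with overlapping matches kept, in RefSeq windows from 250 bases before to 50 bases after each start site (GRCm38.p6). Of the 31 genes, 26 have a window. An ISRE lay in the windows of 11 of these 26 members (42.3%) and of 3.99% of all 27025 genes with a window. A GAS lay in those of 6 members (23.1%) and of 9.55% of all genes. The ISRE genes were Stat2, Irf2, Ifih1, Ifit1, Ifit3, Rsad2, Oas1a, Oas3, Isg15, Slfn5 and Cxcl10. The GAS genes were Irf1, Irf2, Irf8, Ifit2, Isg20 and Oas1a. A match of letters is a description and not a bound site. The stretches below, from upstream of the RefSeq start site and read on the strand of the gene, have the matched letters in capitals. They are shown for 3 antiviral effectors that were nearly absent from the nuclei, for Isg15 and Cxcl10, which were also nearly absent, and for Slfn5 and Irf8, which were not.
Isg15, chr4:156200835-156200936, minus strand, 3 overlapping ISRE matches: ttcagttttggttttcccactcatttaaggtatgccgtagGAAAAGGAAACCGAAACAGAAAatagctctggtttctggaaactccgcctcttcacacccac
Ifit1, chr19:34640745-34640853, plus strand, 2 ISRE matches: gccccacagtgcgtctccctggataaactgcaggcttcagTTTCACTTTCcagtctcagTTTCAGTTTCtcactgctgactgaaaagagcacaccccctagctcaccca
Ifit3, chr19:34583333-34583456, plus strand, 2 ISRE matches: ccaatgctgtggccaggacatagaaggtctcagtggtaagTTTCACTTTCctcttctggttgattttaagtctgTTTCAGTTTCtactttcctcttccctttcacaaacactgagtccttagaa
Rsad2, chr12:26456523-26456612, minus strand, 1 ISRE match: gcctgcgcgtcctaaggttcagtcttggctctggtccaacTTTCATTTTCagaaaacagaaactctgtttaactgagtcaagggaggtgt
Cxcl10, chr5:92349053-92349139, minus strand, 1 ISRE match: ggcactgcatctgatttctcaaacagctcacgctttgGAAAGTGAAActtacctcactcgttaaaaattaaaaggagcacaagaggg
Slfn5, chr11:82951907-82951996, plus strand, 1 ISRE match: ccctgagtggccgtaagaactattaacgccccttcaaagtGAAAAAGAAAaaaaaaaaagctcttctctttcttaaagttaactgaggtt
Irf8, chr8:120736147-120736253, plus strand, 2 GAS matches: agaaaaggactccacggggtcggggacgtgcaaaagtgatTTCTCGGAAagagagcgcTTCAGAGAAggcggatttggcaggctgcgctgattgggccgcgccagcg
The Isg15 matches began 78, 72 and 66 bases upstream of the start site, and those of Ifit1 104 and 85 bases upstream. Both Irf8 matches were of the GAS, at 171 and 153 bases upstream, and its window held no ISRE letters. Neither motif was found in the windows of Slfn4, Irf7 or Rnf213.

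The values are unique molecular identifiers (UMIs), each standing for 1 captured RNA molecule. Levels are given as CPM, the UMIs of a gene for every 1000000 UMIs of the same nuclei. Ranges in brackets are exact 95% intervals and cover counting error only. At day 1, 48987 barcodes carried 9389014 UMIs, and 2405 nuclei with a median of 409 UMIs passed the filters. Post-MTI, 1446 barcodes carried 5899407 UMIs, and 1127 nuclei with a median of 2364 UMIs passed. The shallowest MTI barcode had 500 UMIs, so no free-RNA level was measured there, and myogenic-like nuclei serve as the low reference. The libraries shared 33 barcodes, 15 of them retained in both. Without them the counts of members past 2-fold in macrophage-like nuclei (16 and 1) and in day 1 immune-like nuclei (3 and 3), given below, stayed the same. Populations were clusters of each library named by markers with the ending -like. In the MTI library every marker of each named class, from 6 of 6 for osteoclast-like to 23 of 23 for skeletal lineage-like nuclei, was higher than in the other nuclei. The clusters were named by these same lists, so this is no independent evidence for the names. At day 1 only 7 of 12 immune markers were higher in the immune-like cluster than in other nuclei, and only 13 of 23 skeletal markers had a UMI in the skeletal lineage-like one (none of Sp7, Bglap, Col2a1 or Acan), so those names are weak.

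At day 5 post-MTI the 1127 nuclei held 5209 member UMIs, 1201 CPM (1169 to 1234), and all 31 members had at least 1 UMI. The level was high in immune-like nuclei and low in the stromal and muscle nuclei. The 341 macrophage-like nuclei held 2041 CPM (1968 to 2116), 2.6 times the level of all other nuclei (2.46 to 2.75). The 86 neutrophil-like nuclei held 3622 (3194 to 4091), the highest level. The 49 nuclei of a mixed lymphoid and dendritic cluster, 36 endothelial-like and 34 erythroid-like nuclei held 2124, 1320 and 1352. The 30 osteoclast-like, 177 skeletal lineage-like and 127 myogenic-like nuclei held 663, 538 and 364. Thus the intervals of endothelial-like (1158 to 1499) and erythroid-like nuclei (1184 to 1537) overlap, while that of myogenic-like nuclei (326 to 406) lies below all others. Of 2 clusters that could not be named, 1 of 69 nuclei led by Hspa1a, Ciita and Cd74 held 2268 (1921 to 2660) and 1 of 178 nuclei led by Elf5 held 852 (717 to 1005).

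**Figure D1:**
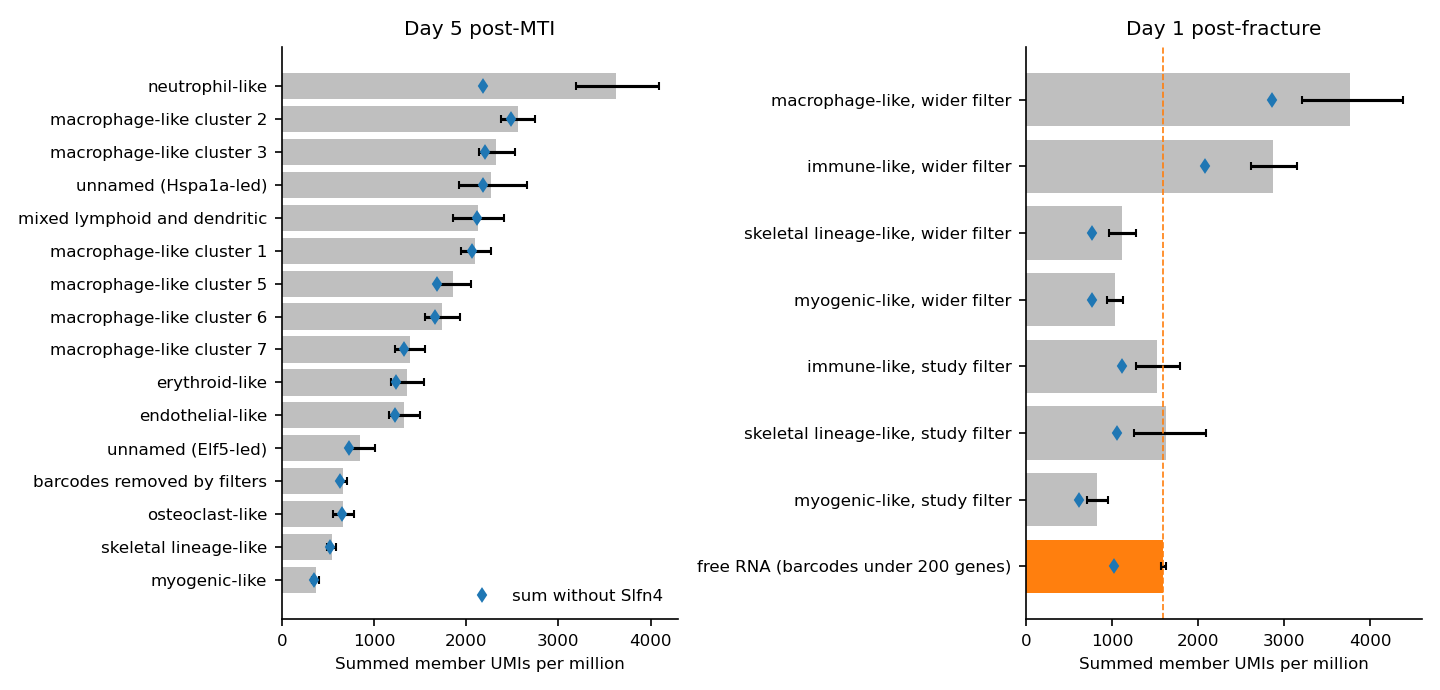
Summed member CPM (horizontal axis) in each population of the day 5 post-MTI library (left) and in the named populations of the day 1 post-fracture library (right). Bars are sums, whiskers exact 95% Poisson intervals and blue diamonds the sum without Slfn4. The orange bar and dashed line are the free-RNA level of 1592 at day 1. Neutrophil-like nuclei lead at day 5 with 3622, and their diamond at 2182 lies among the macrophage-like clusters.

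The macrophage-like nuclei fell into 6 clusters with unequal levels. The highest, 2557 CPM (2374 to 2749), was in cluster 2, whose 10 leading genes included Ednrb, Ccl8, Clec10a, Mrc1, F13a1 and Cd163. Leading genes of these clusters were ranked against the nuclei outside the immune clusters. They therefore need not set 1 macrophage-like cluster apart from the others, and F13a1 also led cluster 3 and Ednrb cluster 6. Cluster 3, led by Arg1, Sirpb1c and Cd14, held 2328 (2138 to 2531), and cluster 1, led by Slamf6, Cd83 and Cd22, held 2098 (1940 to 2265). Cluster 5, led by Tnf and Mmp12, held 1856, cluster 6, led by Hmox1 and Arg1, held 1732, and cluster 7, led by Mmp12, Gpnmb and Itgax, held 1387 (1230 to 1557). The intervals of neighbours in this order overlap, clusters 6 (1552 to 1927) and 7 only just, while those of clusters 2 and 7 do not. The antiviral effectors were also highest in cluster 2, with 352 CPM against 123 to 232 in the other 5, and Oas2 alone was 169 of the 352. The other induced genes were highest there too, at 879 CPM. The transcription factors were instead highest in cluster 3, at 1183 CPM against 1076 in cluster 2, with overlapping intervals (1049 to 1330 and 959 to 1204), and the sensors (116 and 118) and the ISG15 system (134 and 135) were level in clusters 2 and 3.

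By the number of members, 26 had at least 10 UMIs in the retained MTI nuclei, and 16 of them (61.5%) were at least 2-fold higher in macrophage-like than in all other nuclei. Of all 15213 genes with as many UMIs, 11.7% were. One member, Ifit2, was at least 2-fold lower (33.9% of all genes). The median log2 ratio was 1.34 over the members and -0.336 over all genes. Skeletal lineage-like nuclei showed the opposite, with 17 of 26 members at least 2-fold below all other nuclei (25.9% of all genes) and 1, again Ifit2, above (15.7%). Macrophage-like nuclei are a large part of the nuclei that skeletal lineage-like ones are set against.

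Of the 6 role groups, the transcription factors held the largest part of the module, 2481 of its 5209 UMIs. Irf2, which binds the same DNA element as Irf1 and often represses its targets, had 1418 UMIs. Its level was 539 CPM in macrophage-like nuclei against 222 in all others, a ratio of 2.43 (2.18 to 2.7). It was found at 643 in neutrophil-like, 133 in skeletal lineage-like and 194 in myogenic-like nuclei. Its gene spans 108 kb, and per kb of gene span its level in all retained nuclei was 3.03 CPM, beside 2.99 for Stat2, 3.09 for Irf1 and 4.32 for Irf8. Thus Irf2 leads by UMIs and not by level per length.

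Irf8, a factor of macrophage and dendritic cell development, was found in some immune-like populations and not in another. It held 261 UMIs in macrophage-like nuclei, 181 CPM (160.1 to 205), and 41 in the mixed lymphoid and dendritic cluster, 372 CPM (267 to 505), where 17 were in 1 nucleus. Erythroid-like nuclei held 30 UMIs in 10 nuclei, 174 CPM. In neutrophil-like nuclei it had 0 UMIs, which allows up to 42 CPM by a limit of 3 counts. The ratio of neutrophil-like to macrophage-like nuclei was thus 0 (up to 0.286). In osteoclast-like nuclei it had 1 UMI and in skeletal lineage-like nuclei 8. Irf8 was thus present in macrophage-like and erythroid-like nuclei and in the lymphoid and dendritic cluster, and not detectable in neutrophil-like nuclei. After thinning every nucleus to 500 UMIs, 7.62% of macrophage-like nuclei held an Irf8 UMI (5.04 to 11), against 0 of 127 myogenic-like nuclei (11.1 CPM unthinned), a muscle class that should lack it (median depth 3691 UMIs in macrophage-like and 6211 in myogenic-like nuclei before thinning).

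Irf5, which drives inflammatory cytokines in macrophages, was 5-fold higher in macrophage-like nuclei (3.54 to 7.14), with 82.7 against 16.6 CPM. Stat2, the partner of Irf9 on the ISRE, was at 108 against 46.2, a ratio of 2.33 (1.84 to 2.96), and 63 of its 289 UMIs lay in skeletal lineage-like nuclei. Irf9 was at 22.2 against 22.4 CPM, a ratio of 0.992 (0.628 to 1.54). Irf1, induced by both types of interferon, had 32.7 against 22.4, a ratio of 1.46 (0.979 to 2.15), and stood at 99.8 in the mixed lymphoid and dendritic cluster (11 UMIs in 10 nuclei). Irf7, which amplifies type I interferon production, had 17 UMIs in all retained nuclei.

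All 3 sensors were at least 2-fold higher in macrophage-like nuclei. Ifih1 (MDA5, a sensor of long double-stranded RNA) was at 73 against 21.4 CPM, a ratio of 3.41 (2.47 to 4.75). Dhx58 (LGP2, a regulator of that sensing) was at 17.4 against 5.52, a ratio of 3.15 (1.62 to 6.31). Zbp1, a sensor of Z-form nucleic acid that can start cell death, was at 12.5 against 3.45, a ratio of 3.63 (1.59 to 8.79), from 28 UMIs in all. The ratios of the 3 sensors had overlapping intervals.

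Among the antiviral effectors, the oligoadenylate synthetase family, whose products activate an RNA-cutting enzyme, held from 18 UMIs (Oas3) to 173 (Oasl2). Oas2 had 118 of its 169 UMIs in macrophage-like nuclei, at 82 against 17.6 CPM, a ratio of 4.66 (3.33 to 6.61). Oas2 was highest in cluster 2 at 169 CPM (124 to 224), where 26 of 72 nuclei held it, against 38.9 to 74 in the other 5 clusters. Oas1a had a ratio of 4.97 (2.66 to 9.75) and Oasl1, a related protein without that activity, 5.54 (2.38 to 14.4). Oasl2, another relative, was at 68.1 against 25.9, a ratio of 2.63 (1.93 to 3.61). Oas3 had 18 UMIs and a ratio of 1.28 (0.421 to 3.62).

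Several genes that are commonly read as signs of an interferon response were rare. In all 1127 nuclei, Ifit1 had 12 UMIs, Ifit3 9, Isg15 4, Isg20 3, Rsad2 20, Ifi44 9, Cxcl9 1 and Cxcl10 13. The IFIT proteins bind foreign RNA, Rsad2 (viperin) makes a chain-terminating nucleotide, Isg20 degrades RNA and Isg15 is a ubiquitin-like protein attached to others. Per kb of gene their levels were 0.0992 to 0.661 CPM, apart from Cxcl10 at 1.33 and the chemokine Cxcl9 at 0.0342. Per length they were not a group apart, since Zbp1 (0.524), Oasl1 (0.471), Usp18 (0.442) and Herc6 (0.62) lay in the same range and Cxcl10 lay above Oas1a (1.06) and Dhx58 (1.01). Ifit2 was also rare with 37 UMIs, but lay elsewhere: 18 of them, in 17 nuclei, were in skeletal lineage-like nuclei, at 17.5 CPM against 5.74 in all others, a ratio of 3.05 (1.51 to 6.14). Ifit2 in macrophage-like nuclei was at 3.48 CPM. Ifi44 had 6 of its 9 UMIs in skeletal lineage-like nuclei.

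These rare members lay in few nuclei. A single neutrophil-like nucleus of 1400 UMIs held 55 member UMIs of 16 different members, among them 5 of the 12 Ifit1 UMIs, 5 of the 9 Ifit3 UMIs, 3 of Rsad2, 3 of Oas3 and 14 of Slfn4. Of all 1127 nuclei 33 held at least 10 different members, and no other held 16. A macrophage-like nucleus of 3846 UMIs held 48 member UMIs of 15 members without an Ifit UMI. Cxcl10, a chemokine that attracts T cells, had 8 of its 13 UMIs in the unnamed cluster led by Hspa1a, in 2 nuclei of which 1 held 5. Thus the highest population values of Ifit1, Ifit3 and Cxcl10 are those of 1 or 2 nuclei. Over all retained nuclei, the 43 with any Ifit UMI held 1104 CPM of the other members against 1193 in the 1084 without, a ratio of 0.925 (0.822 to 1.04). In macrophage-like nuclei, the 10 with an Ifit UMI held 3128 CPM of the other members against 2004 in the 331 without, a ratio of 1.56 (1.29 to 1.88). In skeletal lineage-like nuclei, the 18 with one held 556 against 511, a ratio of 1.09 (0.871 to 1.35). The 18 were deeper, with a median of 11427.5 UMIs against 3308. In neutrophil-like nuclei the ratio was 6.68 (4.81 to 9.13) on 3 nuclei, 1 of them the nucleus above. Of the 43 nuclei 18 were skeletal lineage-like and 10 macrophage-like, so the ratio over all retained nuclei mixes populations of unlike level. The difference between these ratios was not tested.

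Most UMIs of the ISG15 system and the other induced genes came from large genes. Herc6, the mouse ligase that attaches ISG15, was at 91.8 against 32.1 CPM in macrophage-like and all other nuclei, a ratio of 2.86 (2.18 to 3.77). Usp18, which removes ISG15 and dampens the receptor, was at 13.9 against 9.66 (ratio 1.44, 0.769 to 2.65) and reached 99.8 in the mixed lymphoid and dendritic cluster, on 11 UMIs in 4 nuclei, 6 of them in 1 nucleus. Parp14, an ADP-ribosyltransferase, was at 187 against 48.6, a ratio of 3.84 (3.12 to 4.75). Xaf1, a pro-apoptotic protein, was at 34.8 against 9.31, a ratio of 3.73 (2.29 to 6.2). Rnf213, a very large ubiquitin ligase linked to vessel disease in people, was at 270.4 against 98, a ratio of 2.76 (2.36 to 3.23). In endothelial-like nuclei Rnf213 reached 337 CPM (258 to 433), with 20 of its 61 UMIs there in 1 nucleus.

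Of the Schlafen genes, growth regulators of immune cells, Slfn4 differed between neutrophil-like and macrophage-like nuclei. For Slfn5 the interval of the ratio was too wide to tell. Slfn4 had 103 UMIs in 32 of the 86 neutrophil-like nuclei, 1440 CPM (1176 to 1747), and 123 UMIs in 69 of the 341 macrophage-like nuclei, 85.5 CPM (71.1 to 102). The ratio was 16.8 (12.8 to 22.1). After thinning to 500 UMIs, Slfn4 was found in 30.2% of neutrophil-like nuclei (20.8 to 41.1), 4.11% of macrophage-like and 1.57% of myogenic-like nuclei. Slfn5 was at 69.9 and 70.9 CPM (ratio 0.986, 0.314 to 2.38). Slfn4 alone was 39.8% of the member UMIs of neutrophil-like nuclei and 4.19% of those of macrophage-like nuclei.

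Without Slfn4 the neutrophil-like sum was 2182 CPM against 1955 in macrophage-like nuclei, a ratio of 1.12 (0.943 to 1.31), where all members gave 1.77 (1.56 to 2.02). Without the 2 neutrophil-like nuclei that held the most member UMIs, the ratio of all members was 1.21 (1.03 to 1.41), and without both these nuclei and Slfn4 it was 0.768 (0.625 to 0.934). The 2 nuclei were chosen by their member UMIs and no macrophage-like nucleus was left out, so their removal had to lower the ratio. The values show only how much of the neutrophil-like lead lay in 1 gene and 2 nuclei. Of Oas3 and Rsad2, 3 of 6 and 3 of 4 neutrophil-like UMIs were in the nucleus with the most member UMIs. By member, 6 of the 22 with at least 10 UMIs in this pair of populations were at least 2-fold higher in neutrophil-like than in macrophage-like nuclei (17.0% of all 9647 genes), namely Slfn4, Oasl2, Oas3, Usp18, Rsad2 and Irf9, and 2, Irf8 and Zbp1, at least 2-fold lower (41.6%). Neutrophil-like nuclei were shallow, with a median of 737.5 UMIs against 2364 in all retained nuclei, and only Slfn4, Oasl2, Oas3 and Rsad2 had intervals above a ratio of 1.

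**Figure D2:**
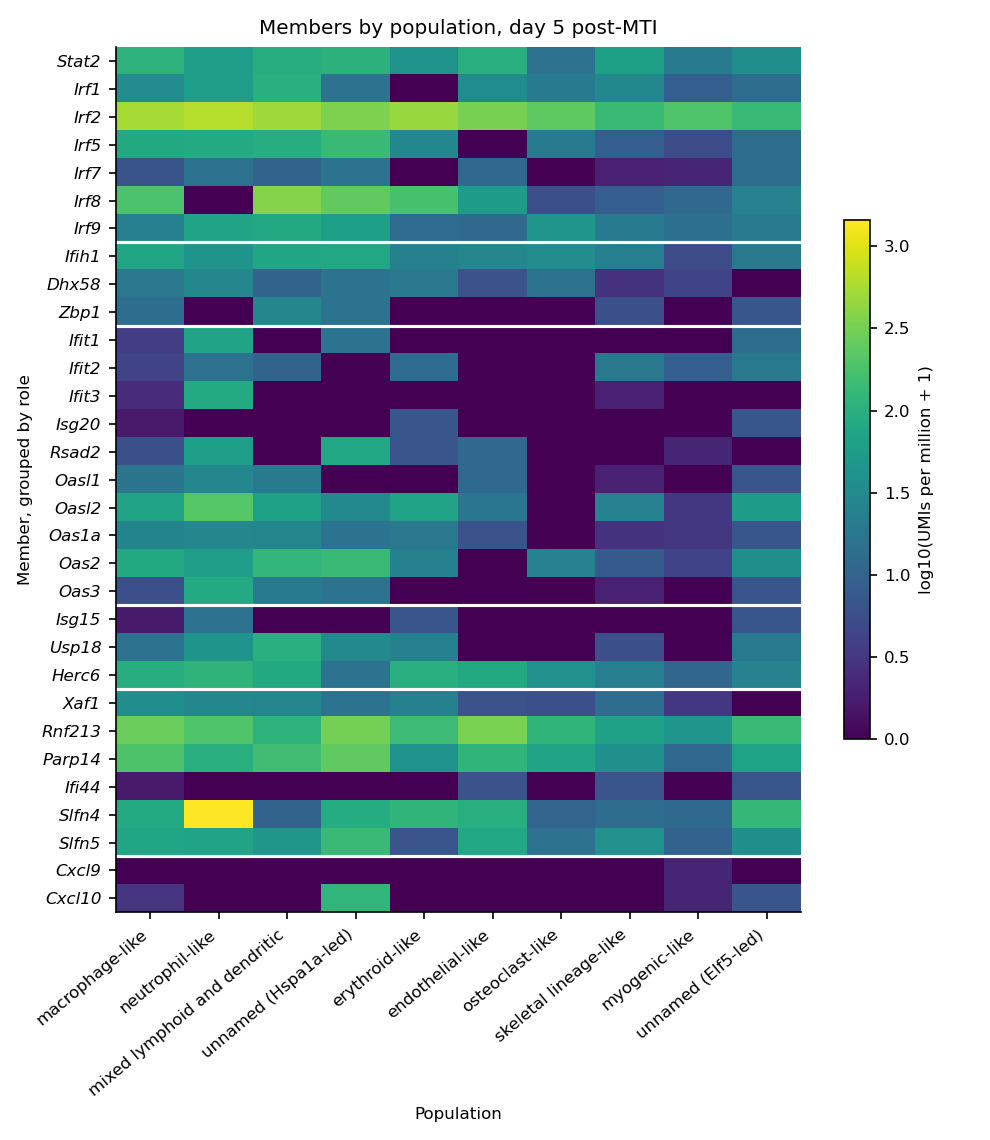
CPM of each of the 31 members (rows, in 6 role groups divided by white lines) in 10 populations of the day 5 post-MTI library (columns), coloured on a log10 scale after adding 1. Irf2, Rnf213 and Parp14 are bright in most columns, Slfn4 peaks in neutrophil-like nuclei, Irf8 is dark there, and Ifit1, Ifit3, Isg15, Isg20 and Cxcl9 are dark almost throughout.

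A larger share of immune-like than of skeletal lineage-like or myogenic-like nuclei held several members at once. Each nucleus was thinned to 500 UMIs, which all 1127 had, so that depth did not differ. At least 2 different members were then found in 20.8% of 476 immune-like nuclei (17.2 to 24.7), 20.5% of macrophage-like and 22.1% of neutrophil-like nuclei. The shares were 2.82% in skeletal lineage-like (0.923 to 6.47) and 2.36% in myogenic-like nuclei (0.49 to 6.75). At least 1 member was found in 59.5% of immune-like, 21.5% of skeletal lineage-like and 19.7% of myogenic-like nuclei. The shares with 2 members thus go with the level, and whether members lay together beyond it was not tested. The intervals of the smaller populations overlapped that of the immune-like nuclei, with 16.7% of 36 endothelial-like (6.37 to 32.8), 14.7% of 34 erythroid-like (4.95 to 31.1), 10% of 30 osteoclast-like (2.11 to 26.5) and 23.2% of 69 nuclei of the Hspa1a-led cluster (13.9 to 34.9). At least 3 members were found in 6.93% of immune-like nuclei and in 0 of 127 myogenic-like nuclei, which allows up to 2.86%. Macrophage-like cluster 2 was again high, with at least 2 members in 30.6% of 72 nuclei (20.2 to 42.5), against 11.1% of 36 in cluster 7 (3.11 to 26.1), intervals that overlap. Unthinned, the share with at least 2 members was 75.8% in immune-like and 37.8% in myogenic-like nuclei.

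**Figure D3:**
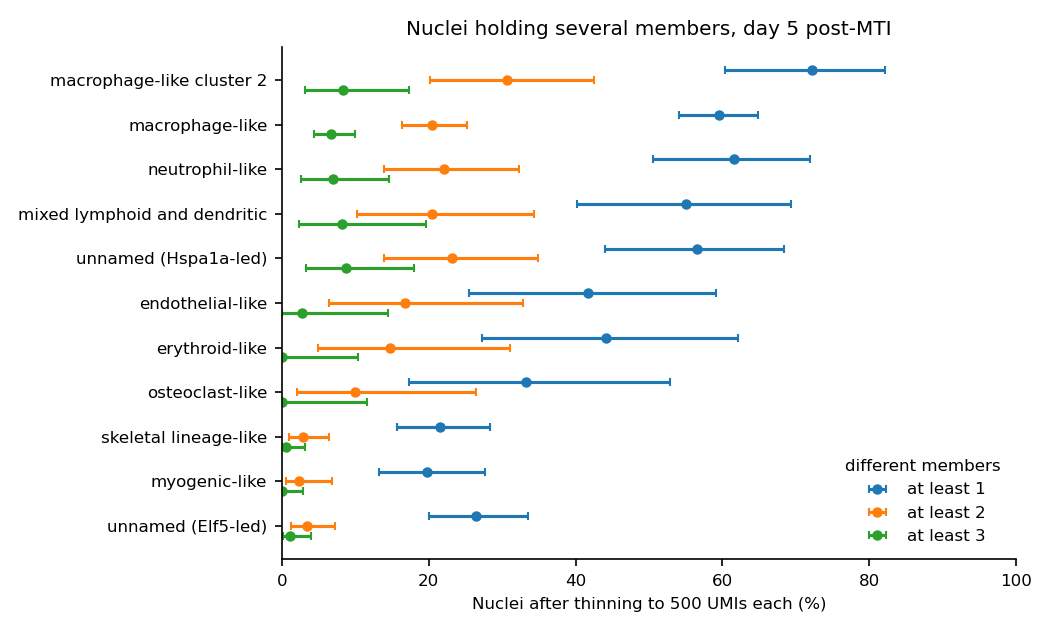
Percentage of nuclei (horizontal axis) with at least 1, 2 or 3 different members after each nucleus was thinned to 500 UMIs, by population of the day 5 post-MTI library. Points are shares and whiskers exact 95% binomial intervals. The immune-like populations stand to the right of the skeletal lineage-like and myogenic-like ones.

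The rest of the pathway was read from lists of its genes. None of 21 interferon ligand genes had a single UMI in the retained MTI nuclei, where 0 UMIs of 4337337 allow at most 0.692 CPM by a limit of 3 counts. Reads matching several genes equally are not counted, so this limit covers only reads assigned to a single gene. The receptors were detected. Of 6 receptor genes, 5 had at least 10 UMIs and all 5 were at least 2-fold higher in macrophage-like nuclei, against 11.7% of all genes. Ifnar1, the first chain of the type I receptor, was at 168 against 52.1 CPM (ratio 3.23, 2.62 to 3.98) and Ifnar2, the second chain, at 276 against 88.7 (3.11, 2.65 to 3.66). Ifngr1 and Ifngr2, of the type II receptor, had ratios of 2.25 (1.81 to 2.8) and 3.09 (2.53 to 3.79). Il10rb, shared by the type III and interleukin-10 receptors, had 5.66 (4.63 to 6.96).

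Downstream, none of the 4 listed kinase and STAT genes was at least 2-fold higher in macrophage-like nuclei. Stat2, which was, is counted among the members and not in this list. For these lists too the share over all genes was 11.7% higher and 33.9% lower. Of 4 inhibitors with enough UMIs, 2 were higher, Socs3 at a ratio of 2.06 (1.32 to 3.23) and Ptpn6 at 4.15 (2.92 to 5.97). Of 13 sensors and adaptors 4 were higher, among them Tlr7, a sensor of single-stranded RNA, at 133 against 9.31 CPM (ratio 14.3, 9.49 to 22.2), and Unc93b1, its carrier, at 4.57 (3.78 to 5.53). Of 42 other interferon-induced genes 26 were higher and 4 lower. Trim30a, Nlrc5 and Cd274 (PD-L1) had ratios of 3.47, 4.48 and 7.53. The 4 lower ones were Gbp4, Gbp6, Iigp1 and Slfn9. The guanylate-binding proteins, which attack the vacuoles of intracellular microbes, differed among themselves, with Gbp3 at a ratio of 2.88 (0.989 to 8.91), Gbp6 with 1 of its 35 UMIs in macrophage-like nuclei and Gbp4 with 0 of 17.

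**Figure D4:**
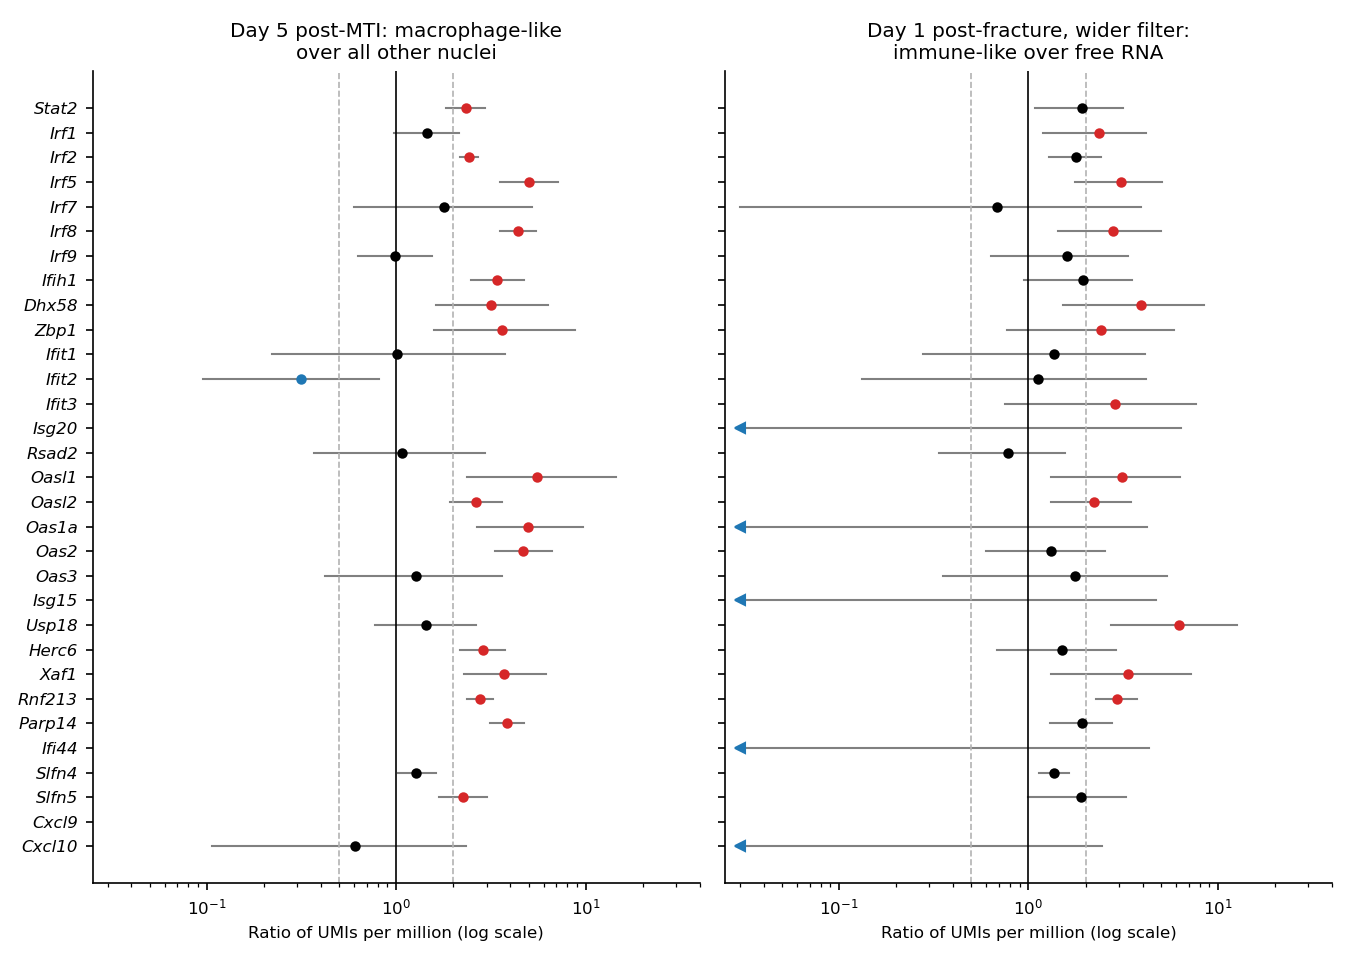
Ratio of CPM (log axis) for each member with at least 10 UMIs, macrophage-like over all other nuclei at day 5 post-MTI (left) and immune-like over free RNA at day 1 post-fracture with the wider filter (right). Points are ratios, red at 2 or more and blue at 0.5 or less, lines exact 95% intervals cut at 0.03, and arrowheads members with no UMI in the first group. On the left 16 of 26 points are red, on the right 11 of 30.

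At day 1 post-fracture the nuclei were compared with the free RNA around them. Barcodes under 200 genes served as that level, with 43464 barcodes, 6848386 UMIs and 10904 member UMIs, 1592 CPM (1562 to 1622). Slfn4 made up 36.2% of those member UMIs. With the stated filters of the study, 2405 nuclei remained, more than the study kept even when the 329 myogenic-like nuclei, a class it removed, are set aside. The nuclei outside that class still held 44284 CPM of the myogenic markers. Whether unnamed clusters hold further muscle nuclei was not tested. All 2405 together held 1021 CPM (965 to 1080), below the free RNA. The 271 immune-like nuclei held 1521 (1282 to 1792), 0.955 times the free RNA (0.804 to 1.13), and the 74 skeletal lineage-like nuclei 1630 (1250 to 2089), 1.02 times (0.784 to 1.31). Neither could be told from free RNA at this depth. The 329 myogenic-like nuclei held 821 (709 to 946), 0.516 times (0.445 to 0.595). All other nuclei, the larger part, were in unnamed clusters, at 631 (521 to 757) to 1540 CPM (1280 to 1837). The highest, of 229 nuclei, stood at 0.967 times the free RNA (0.803 to 1.16), close to the immune-like level. Of 30 members with at least 10 UMIs, 3 were at least 2-fold higher in immune-like nuclei (15.6% of all genes), Isg15, Usp18 and Isg20, each on 1 or 2 UMIs. Another 3, Cxcl10, Irf7 and Rsad2, were at least 2-fold lower (42.1%), on 0 to 3 UMIs. The limit counts both groups together and could be met through the free RNA alone, since immune-like nuclei held only 94026 UMIs. Calls on so few UMIs are not read as levels of these members.

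The study's limit at day 1 removes every nucleus with 0.5% or more mitochondrial UMIs. With the 5% limit used for the MTI library, 5414 nuclei remained and the values differed. The 411 immune-like nuclei then held 2866 CPM (2608 to 3143), 1.8 times the free RNA (1.63 to 1.98). Among them 81 macrophage-like nuclei, with 10 of 13 macrophage markers above the other nuclei but none of Cd68 or Cd163, held 3757 (3202 to 4380), 2.36 times (2.01 to 2.75). The skeletal lineage-like and myogenic-like nuclei were below the free RNA, at 0.698 (0.603 to 0.804) and 0.647 times (0.59 to 0.709). With the study's filter the skeletal lineage-like nuclei could not be told from free RNA. The clusters differ between the filters, so this is not a change within 1 set of nuclei. The skeletal lineage-like cluster had 74 nuclei and 13 of 23 markers detected with the study's filter, and 354 nuclei and 19 of 23 here. Of 12 immune markers, 7 and 10 were higher in the immune-like cluster than in other nuclei. All other nuclei were in unnamed clusters, at 883 (783 to 993) to 1809 CPM (1564 to 2082). The highest, 237 nuclei led by Ctsk, stood at 1.14 times the free RNA (0.981 to 1.31). Of 30 members, 11 were at least 2-fold above free RNA in immune-like nuclei (15.1% of all genes) and 5 at least 2-fold below (33.9%). All 5, Ifi44, Isg15, Cxcl10, Oas1a and Isg20, had 0 UMIs there. The immune-like nuclei held 157358 UMIs against 6848386 in the free RNA. A member can thus reach 10 UMIs through the free RNA alone, and a count of 0 for a rare one is not read as a lower level.

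By member at day 1 with the wider filter, Rnf213 was at 451 CPM in immune-like nuclei against 154 in free RNA, a ratio of 2.93 (2.27 to 3.73). Usp18 had a ratio of 6.22 (2.72 to 12.6), Irf5 3.08 (1.77 to 5.04), Irf8 2.81 (1.43 to 5.02) and Oasl2 2.21 (1.31 to 3.49). Slfn4 was at 788 against 576, a ratio of 1.37 (1.13 to 1.64), although it was the member with the most UMIs. Rsad2 was at 50.8 CPM in immune-like nuclei against 65 in free RNA, where it had 445 UMIs (0.782, 0.336 to 1.56). Thus Slfn4 was only slightly above the free RNA and Rsad2 could not be told from it. Irf5, Irf8, Dhx58, Zbp1, Oasl1, Oasl2, Xaf1 and Rnf213 were at least 2-fold higher both here and in the MTI macrophage-like nuclei, set against different reference nuclei. Of all genes, 15.1% were higher here and 11.7% there. The share of all genes higher in both was not computed, so this overlap is not read as particular to the members.

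In day 1 myogenic-like nuclei the members were mostly at or under the free RNA, and so were most genes. The median log2 ratio was -1.13 over the members and -0.705 over all genes with the study's filter. With the wider one it was -0.7 and -0.323. None of 30 members was at least 2-fold above free RNA with either filter, where 9.09% and 6.58% of all genes were. With the study's filter 17 of 30 (56.7%) were at least 2-fold below, against 44.5% of all genes, and with the wider one 12 (40%), against 29.2%. With the study's filter the highest ratio was that of Irf2, at 198 against 154 CPM (1.29, 0.935 to 1.73).

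Counted ligand UMIs were also near absent at day 1, again without reads that match several genes equally. The 21 genes had 3 UMIs in the 2405 nuclei and 9 in the free RNA. Side by side, the rare effectors had higher values in the day 1 free RNA than in the MTI nuclei. In free RNA Ifit1 stood at 14, Ifit3 at 8.91, Isg15 at 5.26, Rsad2 at 65 and Cxcl10 at 9.93 CPM. In the retained MTI nuclei Ifit1 stood at 2.77, Ifit3 at 2.08, Isg15 at 0.922, Rsad2 at 4.61 and Cxcl10 at 3 CPM. These are free RNA and nuclei, 2 injuries and 2 days, and what sets their differences cannot be told apart.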

How the data were processed

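Raw UMI counts were used as deposited. The authors counted reads per gene and barcode, introns and exons together, with Cell Ranger 7.0.1 on mm10, without normalization. The sample labels name a human reference, but all gene identifiers are of mouse. Reads matching several genes equally are not counted by that tool, so close copies (Ifit1, Ifit3, Oas1a, the Schlafen genes) are uncertain. The strand rule is not given in the sources used here. Nuclei were kept with 200 to 5000 genes and, at day 1, under 0.5% mitochondrial and 2.5% ribosomal UMIs (MTI: 5% and 2%). Each library was clustered alone in Seurat 5.3.0 (R 4.3.3) on 2000 variable genes without the members and pathway genes, with 20 (MTI: 30) components at resolution 1.7 (MTI: 1), and immune clusters again. A cluster was named from at least 3 markers at 1.5-fold, with markers among its 100 leading genes. These naming limits were set after exploratory clusterings were seen. Scrublet in scanpy 1.11.5 marked 13 of 2405 and 3 of 1127 nuclei. At 0.266% of the MTI nuclei that caller is nearly silent, and doublets were kept.

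Levels are CPM, UMIs of a gene for every 1000000 UMIs. With 1 library per group there is no test and no p-value. Intervals (95%) are exact Poisson for sums, exact binomial (Clopper-Pearson) for shares and exact conditional binomial for ratios, and a count of 0 allows up to 3. The ratio step was tested on simulated counts, drawn independently for each gene with known folds. UMIs gathered in a few nuclei were not simulated, so that test does not cover them. Members are given by role, with values from 10 UMIs. Gene spans come from GENCODE vM21 and promoters from RefSeq. The members and lists were chosen with earlier results of these data known. Other days and the day 5 fracture dataset were not used here. The alternatives were other mitochondrial, gene and fold limits, resolution, marker scores, doublets, member sums and a lower free-RNA limit. Leaving out Slfn4, the neutrophil-like nuclei with most member UMIs and the shared barcodes was chosen after seeing the data.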

Additional observations from a re-analysis of the deposited data

Results flagged for a closer look

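The 319 barcodes of the MTI library that the filters removed were in no comparison, and held 1040 member UMIs, 666 CPM (626 to 708). This signal in data outside the comparisons is above a count of 0, and its interval overlaps that of osteoclast-like nuclei (556 to 784). With 1 library in each group, no sample was compared with others of its group. Among members with at least 10 UMIs in both populations together, none was at least 2-fold higher in immune-like than in myogenic-like nuclei in one library and at least 2-fold lower in the other. With that limit, 7 members could be compared at day 1 with the study's filter, 20 with the wider one and 24 in the MTI library. None of these was at least 2-fold higher in myogenic-like nuclei, and 1, 17 and 23 were at least 2-fold higher in immune-like nuclei. The share over all genes was not computed, so these counts are not read as particular to the members.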

How the results depend on the processing

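No paired analysis was possible because each group has 1 library. With 1 library per group no spread between animals is known, and the day 1 nuclei are shallow. Of the values that answer a comparison, 87 alternatives kept them within counting error (counts of members within 1.5 times) and 44 did not, and of the single members 180 kept, 21 moved and 3 reversed.

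At day 5 post-MTI the ratio of macrophage-like to all other nuclei stayed above 1 in every alternative run, at 2.27 with doubled resolution, 2.14 with nuclei named by marker scores, 1.81 as a mean over nuclei and 2.79 without Slfn4 and the 2 neutrophil-like nuclei with most member UMIs. The neutrophil-like ratio to all other nuclei was 2.05 with at least 500 genes, 2.05 by marker scores, 4.55 without the 3 members with most UMIs (Irf2, Rnf213 and Parp14), 2.73 as a mean over nuclei, 1.96 without Slfn4, 2.51 and 2.13 without 1 and 2 such nuclei and 1.35 without these and Slfn4. Over macrophage-like nuclei it was 1.19 with at least 500 genes, 1.1 by marker scores, 2.57 without the 3 members, 1.12 without Slfn4, 1.43 and 1.21 without 1 and 2 nuclei and 0.768 without these and Slfn4. The skeletal lineage-like ratio was 0.421 without the 3 members and 0.335 as a mean, and the myogenic-like one 0.153 without the 3 members. Members lower in macrophage-like nuclei were 2 at 1.5-fold and 3 without a limit on UMIs, and the share over all genes was not computed for either. Immune-like nuclei with at least 2 members were 44.4% at 1000 UMIs and 75.8% unthinned, skeletal lineage-like ones 7.64% and 45.2%, and myogenic-like ones 37.8% unthinned.

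At day 1 the mitochondrial limit of 5% moved the immune-like, skeletal lineage-like and myogenic-like ratios to free RNA to 1.8, 0.698 and 0.647. Marker scores gave 0.682, 0.566 and 0.615. At the 5% limit the members past 2-fold in immune-like nuclei moved to 11 higher and 5 lower. The members higher in immune-like nuclei went from 13 to 23. For 13 and 23, neither the number of members compared nor the share over all genes is given. More members may have had enough UMIs at the 5% limit. The rise from 13 to 23 is therefore not read as a change in level. The myogenic-like ratio was 0.634 with doubled resolution and 0.605 without Slfn4. Members at least 2-fold higher were 1 with members kept in the clustering and 5 with free RNA from barcodes under 100 genes, and at 1.5-fold 9 were higher and 5 lower. The share over all genes was not computed for these alternatives, so the counts are not read as particular to the members. Isg20 and Isg15 reversed to ratios of 0 at the 5% limit and Isg15 to 0.972 with members kept in the clustering, each from 1 UMI. At least 500 genes left no immune-like or skeletal lineage-like value at day 1. The cause of these changes was not tested, apart from those that leave out genes or nuclei.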
